A study of Mus musculus with 5 samples.

Results

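The coagulation and complement factors made by hepatocytes were followed in 5 single-cell libraries of mouse liver. The set holds 35 of the 31053 genes listed in the count tables, 17 of coagulation and fibrinolysis and 18 of complement, chosen by gene symbol, and each symbol was found. Hepatocytes were barcodes with at least 5000 unique molecular identifiers (UMIs, each counting 1 captured RNA molecule), 10% to 30% mitochondrial UMIs and at least 1% of UMIs from the plasma protein genes Alb, Apoa1 and Ttr. This left 5691 hepatocytes, with 2106 from mice of postnatal day 14 (P14) and 925 from the adult control. Another 1170, 719 and 771 came from mice 24 h, 48 h and 96 h after PHx (partial hepatectomy, surgical removal of most of the liver). All mice were C57BL/6J, and the operated mice were adults of 8 weeks at surgery. The protocol text counts the adult control among the operated animals, whereas its title and source call it a control, and it was read as the control. Liver cells were released by perfusion in 2 steps and passed over a dead-cell removal kit, and the number and sex of the animals are not given in the labels. There was 1 library per group, so no difference between groups has a replicate check and no p-value is given. In the labels a lane code of 2 marks the control alone and a code of 1 the remaining 4 libraries, and any effect of lane cannot be told apart from that of the group.

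Coagulation factors circulate as inactive proteases and cofactors. The contact proteins (factor XII, factor XI, prekallikrein and kininogen) and the tissue factor arm (factor VII) feed a shared path through factors X and V to thrombin, while protein C and protein S restrain it and plasmin dissolves the clot. Complement is a parallel protease cascade: classical, lectin and alternative arms converge on C3, and C5 to C9 then assemble a pore in the target membrane. The liver is the main source of most of these plasma proteins.

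Levels are CPM, UMI counts scaled to an equal total per library, over all hepatocyte UMIs of a library outside the 13 mitochondrial genes. Ratios are log2((CPM + 1)/(CPM + 1)), and their 95% intervals cover counting error only. The intervals were computed from the counts without the added 1 CPM, so a ratio can lie off the centre of its interval. An interval beside a median is that of the middle member, or the mean over both middle members. It does not cover the spread between members. Because UMIs tag transcript ends and gene length is not accounted for, levels are compared between libraries and not between genes. Hepatocyte sums held from 13316829 to 64576753 UMIs, and median depth per cell lay between 18527 and 38922 UMIs. Alb, Apoa1 and Ttr, by which the cells were selected, made up 2.29% to 11.7% of hepatocyte UMIs. Of hepatocyte markers outside the selection, Serpina1a was at 2736 to 6735 CPM, Cps1 at 1974 to 5127 CPM, Fabp1 at 4081 to 11687 CPM, Apoc3 at 1644 to 5764 CPM and Ahsg at 4986 to 40074 CPM. The 8 markers with the selection genes had median log2 ratios of 0.01, 0.19 and 0.71 over the control in order of time after PHx. In P14 their median was 1.29, and the part of this in the member ratios was not tested. Markers of lymphoid cells summed to 15.25 to 53.09 CPM, endothelial markers to 21.73 to 44.53 CPM, cholangiocyte markers to 35.59 to 188.3 CPM, and erythroid markers to 123.3 to 761.4 CPM. Mesenchymal markers summed to 47.35 CPM in P14, 6.458 CPM in the control and 4.944 to 11.98 CPM after PHx. Myeloid markers summed to 34.62 CPM in the control and to 105.8, 197.8 and 32.14 CPM in order of time after PHx. The part of these other markers in the member ratios was not tested. Xist was at 840.4 CPM in P14 and at most at 0.0744 CPM in the 4 adult libraries, whereas the Y-linked Ddx3y was at 0 CPM in P14 and at 111.9 to 139.6 CPM in the others. Age, sex and library therefore cannot be told apart in any comparison with P14. Only 3 hepatocyte barcodes were shared between libraries.

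The promoters below belong to 7 members far from the adult control in at least 1 library, picked after their values were seen. They are the 4 terminal complement genes that were low in P14 (C6, C8a, C8b and C9), the complement inhibitor gene C4bp and the contact genes Klkb1 and Kng2. Each is the 250 bases before the annotated start, from RefSeq on GRCm38.p6, written 5′ to 3′ on the gene's strand, and capitals mark motif matches.
C6 (chr15:4726960-4727209, plus strand): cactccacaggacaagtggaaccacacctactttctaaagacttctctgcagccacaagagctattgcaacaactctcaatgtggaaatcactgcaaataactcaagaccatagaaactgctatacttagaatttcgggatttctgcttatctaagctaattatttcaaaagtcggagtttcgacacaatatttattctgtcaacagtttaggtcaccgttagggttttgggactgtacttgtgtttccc
C8a (chr4:104876399-104876648, minus strand): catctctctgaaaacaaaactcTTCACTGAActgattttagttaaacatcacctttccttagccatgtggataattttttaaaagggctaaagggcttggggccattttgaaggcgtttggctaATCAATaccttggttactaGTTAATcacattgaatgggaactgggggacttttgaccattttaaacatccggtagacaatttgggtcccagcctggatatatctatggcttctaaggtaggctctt
C8b (chr4:104766067-104766316, plus strand): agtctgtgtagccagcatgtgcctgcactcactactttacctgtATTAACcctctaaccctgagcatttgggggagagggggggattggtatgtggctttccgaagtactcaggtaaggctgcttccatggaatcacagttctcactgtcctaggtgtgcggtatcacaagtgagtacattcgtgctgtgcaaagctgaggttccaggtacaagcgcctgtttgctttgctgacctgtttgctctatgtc
C9 (chr15:6445096-6445345, plus strand): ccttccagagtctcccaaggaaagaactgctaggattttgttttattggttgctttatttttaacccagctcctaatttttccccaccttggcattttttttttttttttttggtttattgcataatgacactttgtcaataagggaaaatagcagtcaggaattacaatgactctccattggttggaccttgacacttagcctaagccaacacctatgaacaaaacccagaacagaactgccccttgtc
C4bp (chr1:130661619-130661868, minus strand): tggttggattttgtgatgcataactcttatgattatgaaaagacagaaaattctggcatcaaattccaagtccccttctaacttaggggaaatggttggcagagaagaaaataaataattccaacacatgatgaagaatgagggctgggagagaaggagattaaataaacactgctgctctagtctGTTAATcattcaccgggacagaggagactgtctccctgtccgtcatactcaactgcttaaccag
Klkb1 (chr8:45294836-45295085, minus strand): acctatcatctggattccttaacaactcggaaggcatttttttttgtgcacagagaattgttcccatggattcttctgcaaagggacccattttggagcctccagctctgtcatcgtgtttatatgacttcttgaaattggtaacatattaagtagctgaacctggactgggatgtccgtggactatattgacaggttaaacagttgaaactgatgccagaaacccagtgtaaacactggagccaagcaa
Kng2 (chr16:23029102-23029351, minus strand): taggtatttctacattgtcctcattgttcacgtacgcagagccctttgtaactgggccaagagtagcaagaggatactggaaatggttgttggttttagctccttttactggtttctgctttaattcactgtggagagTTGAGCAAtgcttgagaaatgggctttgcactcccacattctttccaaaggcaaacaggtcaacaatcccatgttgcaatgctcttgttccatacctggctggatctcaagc
In all, 5 short motifs of liver and acute-phase regulators were searched on both strands in 32851 promoters of the same length. The HNF1 half-site GTTAAT was in 6.43% of all promoters and in 7 of 29 promoters that covered 27 members, those of C1ra, C4bp, C8a, C8b, F13b, Hc and Vtn. The C/EBP motif TTGNNCAA was in 5.65% of all promoters and in 6 of the 29 (C8g, F11, F12, F9, Hrg and Kng2). The STAT motif TTCNNNGAA was in 7.02% of all and in 4 of the 29 (C8a, F9, Masp2 and Pros1), and the HNF6 motif ATCAAT was in 6.72% of all and in 4 of the 29 (C8a, F12, F2 and F9). The HNF4 motif CAAAGTCCA was in 0.384% of all and in none of the 29. C8a held STAT, HNF1 and HNF6 matches at once, whereas these letters did not occur in the printed windows of C6, C9 and Klkb1. Proc, Plg, Kng1, C2, C4b, Cfb, Cfi and Masp1 have no entry among these promoters.

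Most coagulation members were lower 24 h after PHx than in the control, and their median lay near it at 96 h in the hepatocytes as selected here. In order of time, the median log2 ratio of the 17 coagulation members was -0.48 (counting interval -0.53 to -0.44), then -0.41 (-0.48 to -0.34) and finally 0.09 (0.03 to 0.16), beside medians of 0.00, -0.07 and 0.05 over the 8674 genes with a mean of at least 5 CPM. The complement median was -0.53 (-0.61 to -0.45), -0.48 (-0.52 to -0.44) and -0.20 (-0.24 to -0.16). For the 8 hepatocyte markers, Alb, Apoa1 and Ttr included, the medians were 0.01, 0.19 and 0.71. At 24 h, 13 of 17 coagulation and 15 of 18 complement members were lower, against 49.7% of all genes tested. At 48 h these counts were 11 and 13, against 55.1%, and at 96 h 8 and 11, against 44.7%. Both families together took 1.72% of control UMIs, and 1.48%, 1.82% and 1.76% over the 3 times. When hepatocytes needed 5% of UMIs from Alb, Apoa1 and Ttr, only 6 cells at 24 h, 2 at 48 h and 47 control cells were left. The coagulation medians were then -0.05 and -0.04, beside -0.19 and -0.18 for all genes. At 96 h that limit left 545 cells and a coagulation median of -0.38 (-0.47 to -0.28), and barcodes under 10% mitochondrial UMIs gave -0.51 (-0.69 to -0.33). The 96 h complement median was then -0.60 and -0.45, beside 0.28 and -0.39 for all genes. Barcodes under 10% gave coagulation -0.60 at 24 h and -0.18 (-0.43 to 0.08) at 48 h, beside -0.61 and -0.55 for all genes. Their complement median at 48 h was -0.09 (-0.36 to 0.17). Dissociation markers summed to 728.6 CPM in the control and to 770.1, 883.8 and 1054 CPM in order of time. At 96 h, 1703 of 3624 barcodes of at least 5000 UMIs exceeded 30% mitochondrial UMIs, against 420 to 501 barcodes in the other libraries. The part of these in the member ratios was not tested. All of these ratios use the same control library and so are not independent of each other.

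**Figure D1:**
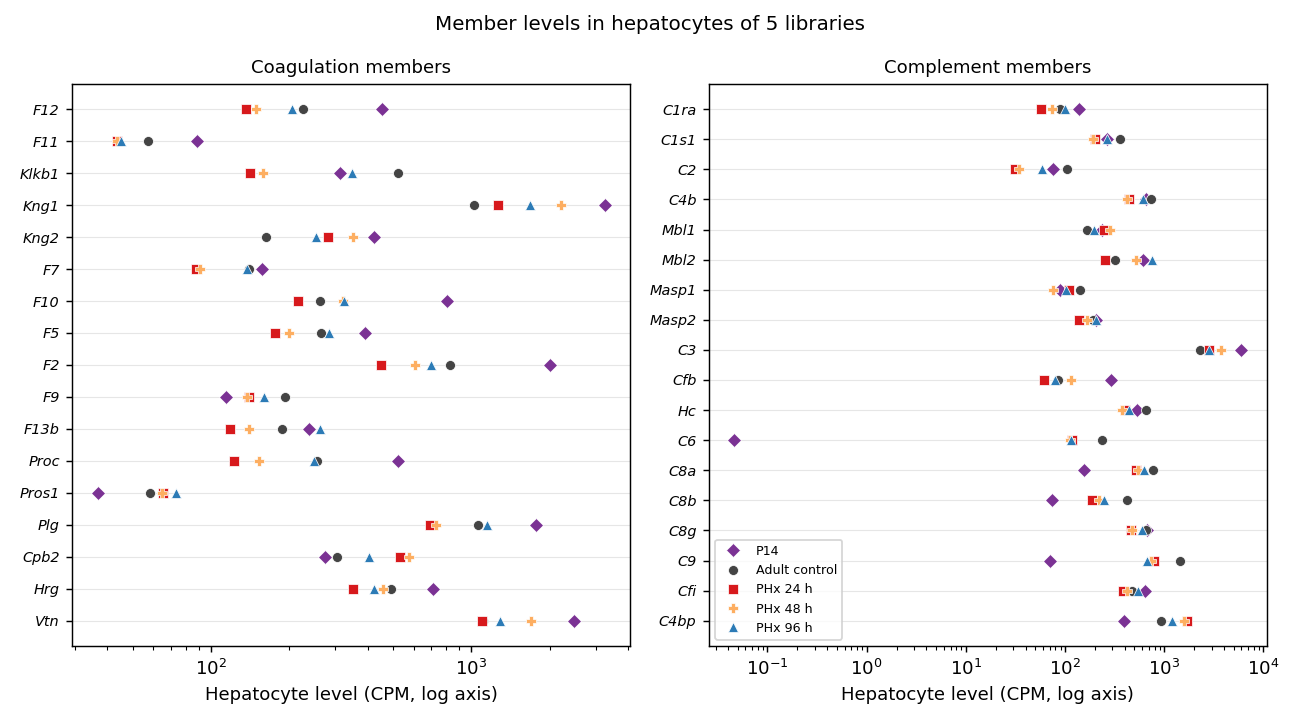
Level of each coagulation member (left) and complement member (right) in hepatocytes of the 5 libraries, in CPM on a log axis, 1 point per library. The P14 point of C6 lies at 0.0465 CPM, whereas its adult points lie between 111 and 234 CPM.

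In the contact system, the prekallikrein gene Klkb1 was the coagulation member farthest below the control. Klkb1 was at 523.1 CPM in the control, then 140.8, 159.2 and 348.3 CPM in order of time after PHx, and 313.4 CPM in P14. Its log2 ratios in that order were -1.89 (-1.96 to -1.83), then -1.71 (-1.78 to -1.66) and -0.59 (-0.64 to -0.53), so the 24 h and 48 h levels were the lowest of the 5. Both kininogen genes, whose products carry the bradykinin sequence, went the other way. Kng1 was at 1021 CPM in the control and at 1261, 2214 and 1679 CPM at 24 h, 48 h and 96 h, and Kng2 was at 163.4 CPM in the control and at 282, 352.6 and 254.1 CPM. They reached log2 ratios of 1.12 (1.09 to 1.15) and 1.10 (1.04 to 1.18) at 48 h, and were higher still in P14 at 3248 and 421.3 CPM. The neighbours Kng2 and Kng1 lie 28.4 kb apart on chromosome 16 on opposite strands, and reads of such similar copies can be assigned to the wrong one. F12, which starts the contact path, was at 226.8 CPM in the control, then 136.3, 149.2 and 204.5 CPM in order of time after PHx, and 454.2 CPM in P14. F11 ranged from 43.58 to 57.15 CPM in the adult libraries and was at 88.82 CPM in P14. Klkb1 and F11 are adjacent on chromosome 8, 4.66 kb apart on the same strand, and F11 had a log2 ratio of only -0.38 at both 24 h and 48 h.

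The tissue factor arm and the common path, grouped here with F9 and F13b, were lower at 24 h throughout. All 6 genes (F7, F10, F5, F2, F9 and F13b) were below the control, with log2 ratios from -0.88 to -0.27, against 49.7% of all genes. Prothrombin, F2, was at 827.7 CPM in the control, then 448.1, 607.8 and 702.3 CPM in order of time after PHx, and 2012 CPM in P14. The order of the adult levels put 24 h lowest and the control highest, while P14 lay above all of them. F10, whose product converts prothrombin, had left this pattern by 48 h, with 261.6 CPM in the control, then 216.4, 322.5 and 323.4 CPM in order of time after PHx, and 805.5 CPM in P14. F7, 1.5 kb upstream of F10 on the same strand, was at 140.2 CPM in the control, 87.88 and 91.2 CPM at 24 h and 48 h and 138.2 CPM at 96 h. F13b, the carrier subunit of the clot-crosslinking factor XIII, went from 118.2 CPM at 24 h to 262.9 CPM at 96 h, above its control level of 187.9 CPM. Among adult libraries F5, the cofactor of factor Xa, ran between 176.9 CPM at 24 h and 283 CPM at 96 h. It was at 265 CPM in the control and 392.4 CPM in P14. F9, the antihaemophilic factor IX, was lowest in P14 at 114 CPM and highest in the control at 192.7 CPM.

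The anticoagulants protein C and protein S differed. Proc was at 254.5 CPM in the control, then 122.7, 152.6 and 247.9 CPM in order of time after PHx, and 523.5 CPM in P14, with a log2 ratio of -1.05 (-1.13 to -0.98) at 24 h and -0.04 (-0.11 to 0.03) at 96 h. Pros1 was at 58.42 CPM in the control and between 64.8 and 73.74 CPM at the 3 times after PHx. It was at 36.78 CPM in P14, its lowest level. The 6 vitamin K dependent members (F2, F7, F9, F10, Proc and Pros1) had medians of -0.56, -0.47 and -0.03 over the 3 times.

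Among fibrinolytic and matrix genes, the plasminogen gene Plg was lower at 24 h (693.7 CPM) and 48 h (729.7 CPM) than in the control (1057 CPM) and was at 1146 CPM at 96 h. Cpb2, which encodes a fibrinolysis inhibitor, was higher at each time, at 531.9, 574.4 and 404.4 CPM against 306.2 CPM in the control. Vtn, the gene of vitronectin, stood at 1111 CPM in the control and then 1101, 1699 and 1284 CPM in order of time. Hrg was lower at 24 h (352.4 CPM against 493.4 CPM) and within a log2 ratio of -0.22 at 48 h and 96 h. At least 2-fold lower at 24 h were Klkb1 and Proc of 17 coagulation members, against 6.50% of all genes, and none was at least 2-fold higher, against 7.77%. Proc kept that size in 9 of 13 other settings, and its log2 ratio was -0.27 in barcodes under 10% mitochondrial UMIs. At 48 h Kng1 and Kng2 were at least 2-fold higher (7.44% of all genes) and Klkb1 lower (7.19%). At 96 h no coagulation member passed 2-fold, against 4.31% higher and 1.56% lower of all genes.

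**Figure D2:**
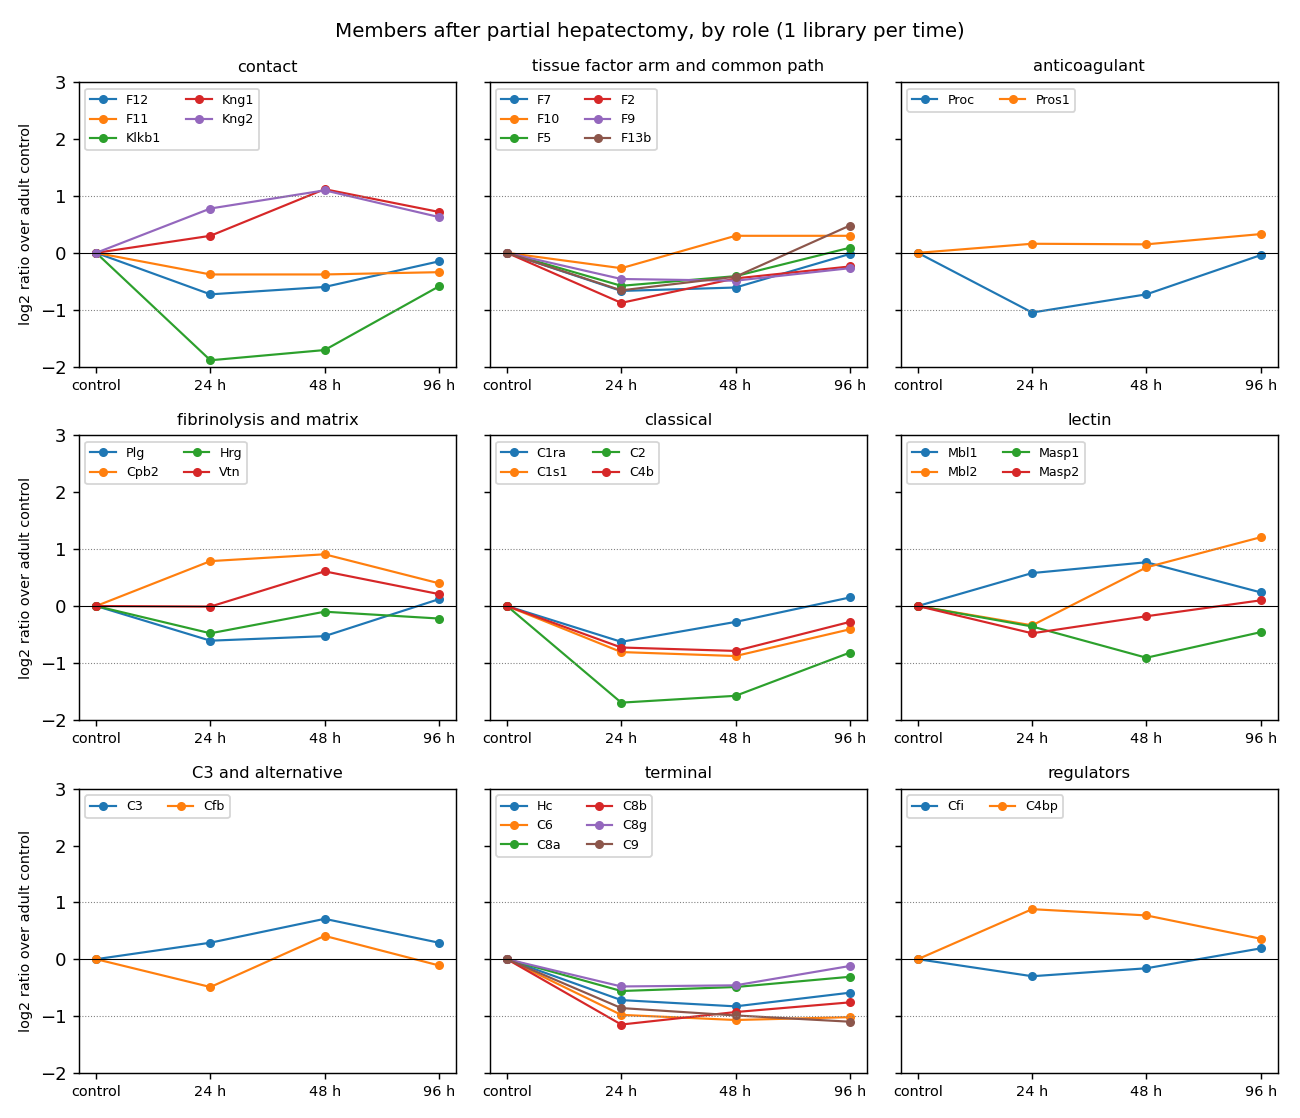
Log2 ratio over the adult control (y axis) at 24 h, 48 h and 96 h after PHx (x axis) for members of each role, 1 line per gene and 1 library per time, with dotted lines at 2-fold. Klkb1 lies at -1.89 at 24 h, Kng1 at 1.12 at 48 h and Mbl2 at 1.21 at 96 h, and all 6 terminal complement genes stay below 0.

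The classical complement genes were below the control at 24 h and 48 h in 4 of 4 cases, against 49.7% and 55.1% of all genes. C2, which supplies the protease of the classical C3 convertase, was at 104.3 CPM in the control, then 31.36, 34.18 and 58.63 CPM in order of time after PHx, and 74.97 CPM in P14. Its log2 ratio of -1.70 (-1.87 to -1.60) at 24 h was the lowest of the complement members. Its neighbour Cfb lies 85 bases away on the same strand of chromosome 17, and reads across that boundary may not be separable. Cfb, the protease of the alternative arm, did not follow C2: it was at 85.76 CPM in the control, then 60.82, 113.9 and 79.62 CPM in order of time after PHx, and 287.5 CPM in P14. C1s1 and C4b had log2 ratios of -0.81 and -0.73 at 24 h and -0.88 and -0.79 at 48 h. The C4b copy C4a was only on the list of further complement genes, its level is not given here, and reads of such copies can be misassigned. C1ra had -0.63 at 24 h and 0.15 at 96 h.

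In the lectin arm, the collectin gene Mbl2 had the highest ratio of all members at 96 h. Mbl2 was at 322.2 CPM in the control, then 254.9, 515.9 and 748.8 CPM in order of time after PHx, and 604.8 CPM in P14. This was the only member at least 2-fold higher at 96 h, with a log2 ratio of 1.21 (1.16 to 1.27), against 4.31% of all genes. With the limit of 5% from Alb, Apoa1 and Ttr its ratio was 0.66, below 2-fold. Its paralog Mbl1 had its highest level at 48 h instead, at 282.4 CPM against 165.7 CPM in the control. Of the lectin proteases, Masp1 was lowest at 48 h (75.31 CPM against 142.2 CPM in the control), and Masp2 was lowest at 24 h (136.8 CPM against 190.6 CPM). C3, on which the arms converge, was higher at each time, at 2801, 3727 and 2794 CPM against 2283 CPM.

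The terminal genes were the one role in which each member lay below the control at each time. In order of time their median log2 ratios were -0.79, -0.88 and -0.67. C9, the pore-forming subunit, was at 1450 CPM in the control and then 796.7, 727.1 and 677.3 CPM in order of time, so that, unlike the coagulation median, it was lowest at the last time. C6 was at 234 CPM in the control and at 118, 111 and 115 CPM after PHx. C8b was at 416.6 CPM in the control and at 187.4, 217.7 and 245.5 CPM, while the adjacent C8a, 11.1 kb away on the opposite strand, was at 769.5 CPM and then at 520.1, 547.4 and 622 CPM. C8g was at 648.2 CPM in the control and at 465.2, 469.5 and 596.2 CPM. Hc, the gene of C5, was at 659.5 CPM in the control and at 399.9, 370.7 and 438.3 CPM.

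Of the regulators, C4bp, which holds back the classical convertase, was at 930.7 CPM in the control and then 1713, 1590 and 1197 CPM in order of time. Its log2 ratio of 0.88 (0.85 to 0.91) at 24 h was the highest of the complement members. Cfi, the protease that uses it as cofactor, was at 474.4 CPM in the control and between 386 and 542.7 CPM after PHx. At least 2-fold lower were C2 and C8b at 24 h, C2 and C6 at 48 h, and C6 and C9 at 96 h, against 6.50%, 7.19% and 1.56% of all genes. With the limit of 5% from Alb, Apoa1 and Ttr, C2 was at -0.91 at 24 h and -0.79 at 48 h. C8b at 24 h was then at -0.45, C6 at 48 h at -0.50 and C9 at 96 h at -0.71, none of them 2-fold lower. Acute phase genes moved at the same times: 8 such markers summed to 12301 CPM in the control and then 68163, 99174 and 12610 CPM in order of time. Their part in the member ratios was not tested.

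Of 32 further coagulation genes 19 reached 5 CPM. At 24 h, 5 of them were at least 2-fold higher and 1 lower, and at 48 h again 5 and 1, against 7.77% and 6.50% of all genes at 24 h and 7.44% and 7.19% at 48 h. The fibrinogen genes Fga, Fgb and Fgg had log2 ratios of 1.61, 1.67 and 1.60 at 48 h, opposite in sign to F2, whose product cleaves fibrinogen. Hgfac, a factor XII-like protease gene, was the lower one, at -1.39 and -1.18. Of 11 further complement genes above that level, 1 was at least 2-fold higher and 1 lower at each of these times, against the same shares. The pentraxin gene Apcs was the higher one, with log2 ratios of 4.05 at 24 h and 4.07 at 48 h. The lowest ratios were -1.51 and -1.01, and the medians of the 11 genes were 0.08 and 0.27. Among 16 regulators of these pathways, 2 were at least 2-fold higher and 3 lower at 24 h, and 1 and 5 at 48 h, against the same shares of all genes. The highest log2 ratios of the 16, in a gene or genes not named here, were 3.67 at 24 h and 3.16 at 48 h. The transcription factor gene Cebpa was at 352.1 CPM in the control and at 72.51 and 81.22 CPM at 24 h and 48 h, with log2 ratios of -2.26 and -2.10. Its relative Cebpb had 1.07 and 0.71, and the liver transcription factor genes Foxa1 and Foxa2 had -1.20 and -0.55 at 24 h and -1.76 and -1.28 at 48 h.

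In P14 most coagulation members were higher than in the adult control, and both family medians depended on the scaling and on how the hepatocytes were selected. The coagulation median log2 ratio was 0.63 (0.53 to 0.75) and the complement median -0.23 (-0.26 to -0.20), beside -0.26 for all genes tested. The 8 hepatocyte markers, Alb, Apoa1 and Ttr included, had a median of 1.29. In barcodes under 10% mitochondrial UMIs the complement median was 0.28 beside -0.15 for all genes, and with 5% of UMIs from Alb, Apoa1 and Ttr it was -0.49 beside 0.02. The coagulation median with that limit was 0.10 (-0.30 to 0.54). With TMM scaling coagulation had 0.97 and complement 0.11, beside 0.07 for all genes. Relative to the median of all genes they had 0.89 and 0.03. Lower than the control were 4 of 17 coagulation and 10 of 18 complement members, against 64.8%. Coagulation members took 1.40% of UMIs in P14 and 0.715% in the control, and complement members 1.11% and 1.01%. In all, 6 coagulation members were at least 2-fold higher (Kng1, Kng2, F10, F2, Proc and Vtn), as were C3 and Cfb, against 6.96% of all genes. F12 was at 2-fold without the added 1 CPM and just short of it with it. When hepatocytes needed 5% of UMIs from Alb, Apoa1 and Ttr, which kept 2106 P14 but only 47 control cells, none of the 8 was 2-fold higher and Vtn was at -0.15. P14 was the highest of the 5 libraries for 12 of 17 coagulation and 5 of 18 complement members, against 15.6% of all genes. It was the lowest for F9, Pros1 and Cpb2 and for 5 complement members, against 46.7%. The control was the highest for 2 coagulation members (Klkb1 and F9) and 9 complement members, against 28.0%, and 24 h was the lowest for 11 and 7, against 15.1%. Lower by at least 2-fold were C6, C8a, C8b, C9 and C4bp, against 13.4% of all genes. C4bp was below that size with TMM scaling (-0.92) and in barcodes under 10% mitochondrial UMIs (-0.39).

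C6 was all but missing in P14. It gave 3 UMIs in 3 of 2106 P14 cells (0.0465 CPM), against 234 CPM in the control. Without the added 1 CPM, the ratio of control over P14 was 5037, with a counting interval of 1722 to 24437. With it, the log2 ratio of P14 over the control was -7.81. C9 was at 70.2 CPM in P14 and 1450 CPM in the control, C8a at 155.1 and 769.5 CPM, and C8b at 74.52 and 416.6 CPM. The log2 ratios were -4.35 (-4.42 to -4.32) for C9, -2.30 (-2.35 to -2.27) for C8a and -2.47 (-2.54 to -2.43) for C8b. The other terminal genes did not share this: C8g, the third subunit of C8, was at 675 CPM in P14 and 648.2 CPM in the control, and Hc at 535.2 and 659.5 CPM. Thinned to 5000 UMIs per cell, 56.0% of control hepatocytes and 0 of 2106 P14 hepatocytes had a C6 UMI, where 0 cells allow up to 0.175% with a UMI at that depth (exact binomial, counting error only), while without thinning 89.1% and 0.142% had one. For C9 the thinned shares were 98.4% and 22.1%. Lymphoid cells, which should lack C6, had a C6 UMI in 20.8% of 838 control cells at a median depth of 5803 UMIs. Their 199 C6 UMIs were 1.12 times (0.966 to 1.28) what free RNA of that library predicts. C4bp was at 388.4 CPM in P14.

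**Figure D3:**
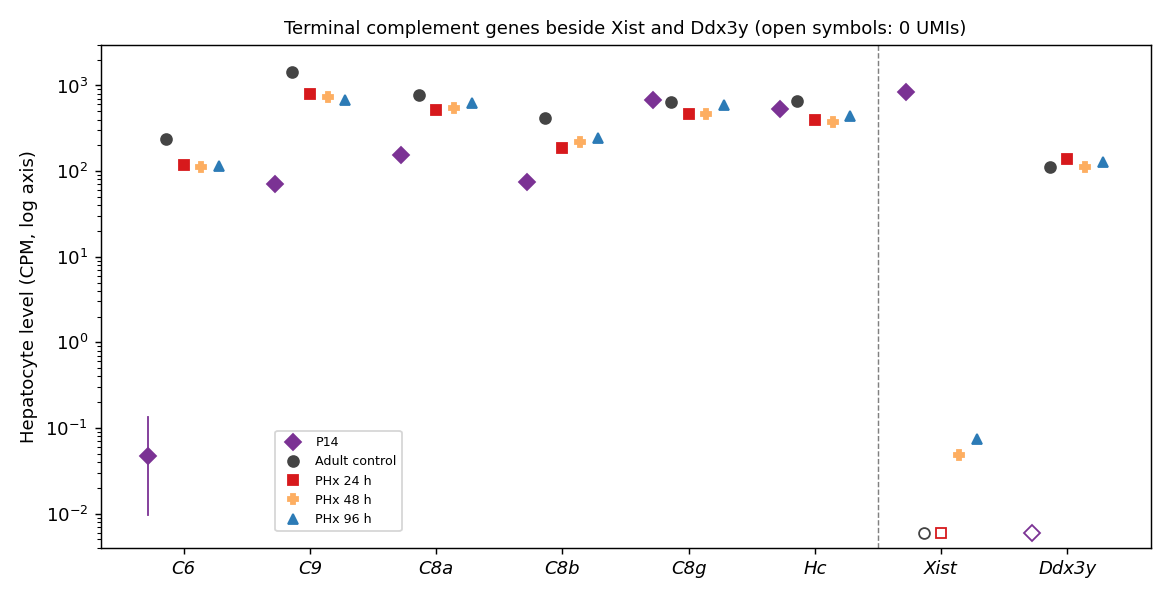
Level of the 6 terminal complement genes in hepatocytes of the 5 libraries (CPM, log axis, bars are 95% counting intervals), with Xist and Ddx3y to the right of the dashed line and open symbols at the foot for 0 UMIs. C6, C9, C8a and C8b are lowest in P14, the library with Xist at 840.4 CPM, whereas C8g and Hc are not.

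Within each library, hepatocytes were ranked by pericentral minus periportal marker genes, and the outer parts of 3 equal parts were compared. In the adult libraries members leaned to the periportal side, around the portal tract where blood enters the lobule. Beyond counting error, 7 coagulation members (F12, Kng1, Kng2, F7, F10, Plg and Vtn) and 8 complement members (C1s1, C2, C3, Cfb, Hc, C8a, C9 and Cfi) were higher periportally in 4 of 4 adult libraries, against 3.75% of all genes and 9.05% of genes of at least 50 CPM. None was pericentral in all 4, against 3.71% and 8.78%. Hc was at 780.2 CPM in the periportal and 509.7 CPM in the pericentral part of the control, and its log2 ratio ran from -0.61 to -0.46 over the 4 adult libraries. C6 was the other way, with 0.42 in the control, 0.40 at 24 h, 0.73 at 48 h and 0.11 (-0.07 to 0.29) at 96 h. Mbl2 was pericentral at 24 h (0.93) and 96 h (0.91) but close to even in the control (0.14) and at 48 h (0.03). At 96 h median depth differed, at 26467 UMIs in the pericentral and 18816 UMIs in the periportal part, and its part in the 96 h values was not tested.

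In P14 the same ranking gave another picture. There 13 coagulation and 10 complement members were higher pericentrally beyond counting error, against 13.9% of all genes and 20.9% of those of at least 50 CPM, while F7, F9, Hrg, Masp2, C3 and C9 were higher periportally, against 28.1% and 45.5%. F7, C3 and C9 were periportal in all 5 libraries, against 2.76% of all genes, and none was pericentral in all 5, against 2.16%. The P14 ratio of C3 was only -0.03 (-0.039 to -0.017), and these intervals do not cover spread between cells. Of the 50 CPM genes, 1.89% were periportal in 4 of 4 adult libraries and pericentral in P14, as 9 members were. C9 showed the widest gap, at 120.5 CPM periportally and 28.21 CPM pericentrally in P14, a log2 ratio of -2.06 (-2.22 to -1.97). In the adult libraries its ratio was between -1.20 and -0.43.

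**Figure D4:**
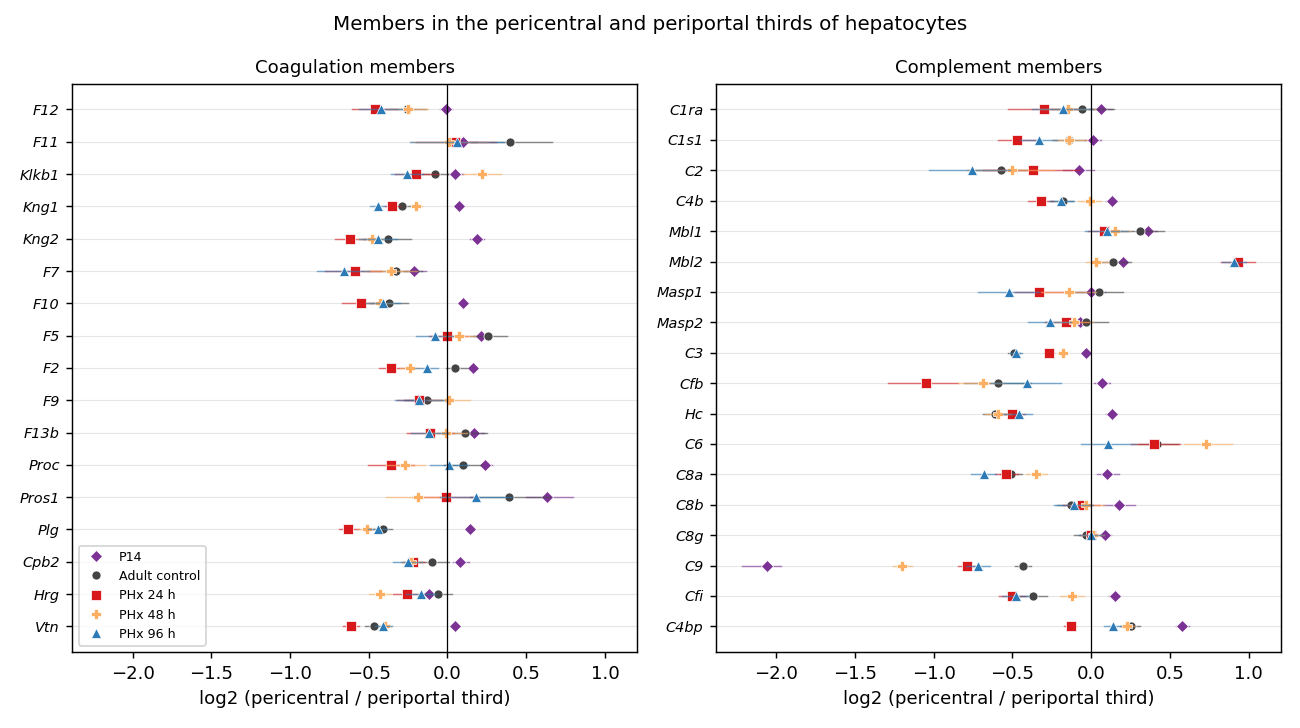
Log2 ratio of the pericentral over the periportal part of hepatocytes for each member and library (x axis), with 95% counting intervals, coagulation left and complement right, C6 in P14 left out for want of UMIs. Adult points of Hc, Cfb and Kng2 lie left of 0 and their P14 points right of it, and the P14 point of C9 lies at -2.06.

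Most members took a smaller share of UMIs in hepatocytes with mitosis transcripts. Cells with UMIs of at least 3 of 15 mitosis genes after thinning were compared with cells that had none. They numbered 217 in P14, 117 at 24 h, 272 at 48 h and 56 at 96 h, and only 4 in the control. In the first 4 libraries, 15 of 17 coagulation and 12 of 18 complement members had a lower CPM in mitosis-positive cells each time. The share of all genes was 11.3%, counted from a mean of 5 CPM, and no share at 50 CPM was taken. Over all genes the median log2 ratio was 0.22 in P14 and 0.11, 0.17 and 0.16 in order of time after PHx. Lower and higher here meant by any amount, so Cfb was counted at 48 h with 113.5 CPM in both groups of cells. F2 had log2 ratios of -0.36, -0.56, -0.27 and -0.54, and Kng1 of -0.49, -0.43, -0.23 and -0.31. Pros1 and Mbl2 were higher each time, against 41.7% of all genes, and for Mbl2 the ratios were 0.12, 0.35, 0.61 and 0.79. These ratios are of shares and not of UMIs per cell, and mitosis-positive cells were deeper at 24 h (27802 against 18917 UMIs), 48 h (42893 against 32791 UMIs) and 96 h but not in P14 (37359 against 39681.5 UMIs), and the part of depth was not tested.

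Members were also counted in other liver cells of the same libraries and set against the UMIs expected from free RNA. In lymphoid cells no member had a lower bound over 1.5 times the free-RNA expectation in at least 3 libraries, against 77.8% of all genes. Endothelial cells passed it for Pros1 and Masp1, against 59.8%. Pros1 was at 177.9, 295.4, 469.6, 394.6 and 190.8 CPM in endothelial cells of P14, control, 24 h, 48 h and 96 h, above its hepatocyte level in each. Masp1 was at 117.1, 188.5, 89.05, 210.4 and 208.5 CPM there. Mesenchymal markers summed to between 99.8 and 252 CPM in these endothelial cells, and their part in Pros1 and Masp1 was not tested. Myeloid cells passed for F10 and F5, against 46.9%, with F10 at 54.37, 78.83, 126.9, 139.1 and 173.4 CPM in the same order of libraries, or 1.84, 1.54, 7.09, 13.1 and 4.90 times the free-RNA expectation. F5 was at 61.16, 65.69, 38.64, 17.83 and 106 CPM there, or 4.25, 0.689, 3.12, 3.50 and 5.40 times that expectation. The myeloid and endothelial groups hold from 16 to 136 cells per library.

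**Figure D5:**
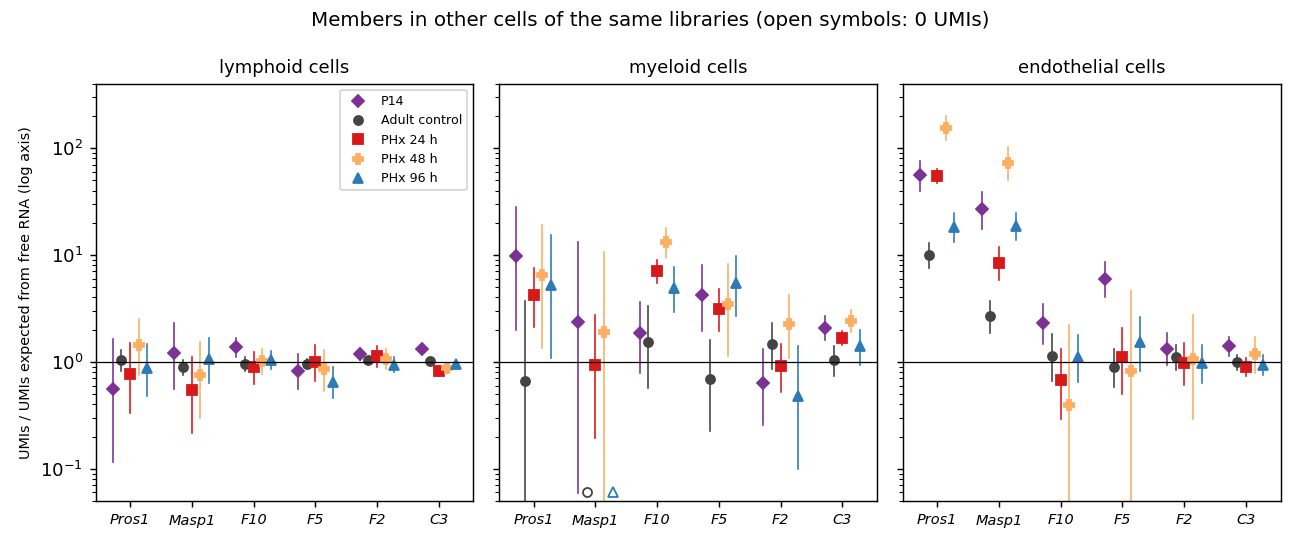
UMIs of 6 members in lymphoid, myeloid and endothelial cells divided by the UMIs expected from free RNA (log axis), 1 point per library with 95% counting intervals, open symbols for 0 UMIs and the line at 1 for free RNA alone. Pros1 in endothelial cells reaches 155 at 48 h and F10 in myeloid cells 13.1, whereas F2 and C3 lie near 1 in lymphoid cells.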

How the data were processed

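Per the submitters' processing notes, bcl2fastq 2.17.1.14, Cell Ranger and Seurat 3.1 were used with mm10. The authors deposited whole-number UMI counts per gene and barcode, not normalized, and the matrix writer was version 3.0.2, per the file headers. Members, lists and rules were chosen with earlier results of these data known. The gates for other cells, the mitosis comparison, the motifs, the background at 50 CPM and the ratio relative to the median of all genes were set after seeing the data. The promoter window was shortened to the 250 bases before the start after motif counts in a longer window had been seen.

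Hepatocyte counts were summed per library (numpy 2.4.6, scipy 1.17.1, pandas 2.3.3). Ratios used a pseudocount of 1 CPM, and their exact conditional binomial 95% intervals were computed without it. Both were run on simulated counts that held counting error alone. Those counts cannot show whether the intervals cover spread between cells or animals. With 1 library per group nothing was tested, and differences were called by size alone, at 2-fold, over 8674 genes with a mean of at least 5 CPM. All 35 members passed that minimum and each is named. Zones were ranked by 12 pericentral and 12 periportal marker genes. Other cells had at least 1000 UMIs and 500 genes, under 10% mitochondrial UMIs, at least 5 of 20 markers of their class and at most 3 of any other. Free RNA was read from barcode ranks 20001 to 60000. Doublets stayed in, except in an alternative that left out the highest Scrublet scores (scanpy 1.11.5). TMM factors came from edgeR 4.0.16 in R 4.3.3. Coordinates are GENCODE M21 (GRCm38). The effects of 12 other settings, and of 1 added later, are given in the closing section.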

Additional observations from a re-analysis of the deposited data

Results flagged for a closer look

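The zone contrast of 9 members in P14 went against all 4 adult libraries, each beyond counting error, but the difference between P14 and the adults was not tested. In the adult libraries each was higher periportally, and in P14 pericentrally, by log2 ratios of 0.07 for Kng1, 0.19 for Kng2, 0.10 for F10, 0.14 for Plg, 0.05 for Vtn, 0.07 for Cfb, 0.13 for Hc, 0.10 for C8a and 0.15 for Cfi. Among genes of at least 50 CPM, 1.89% did the same. This criterion was chosen after the data were seen, since an earlier one that asked for 2-fold in both directions found no member. The P14 ratios are small, counting intervals do not cover spread between cells, and age, sex and library cannot be told apart.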

How the results depend on the processing

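No paired analysis was possible because each group has 1 library. Values are family medians (log2 over the control) that were counted as moved. None moved with a pseudocount of 10 CPM, a mean of at least 50 CPM or no minimum level. None moved either with at least 10000 UMIs per cell, without high doublet scores or with free RNA subtracted. With TMM, coagulation had -0.43 at 24 h, -0.32 at 48 h and 0.97 in P14, and complement -0.39 at 48 h and 0.11 in P14. Relative to the median of all genes (added after seeing the data), coagulation had -0.33 at 48 h and 0.89 in P14, and complement -0.40 at 48 h, -0.25 at 96 h and 0.03 in P14. CPM over all UMIs gave complement -0.14 in P14, and thinning to 5000 UMIs gave complement -0.61 at 24 h. Hepatocytes of 10% to 20% mitochondrial UMIs gave coagulation -0.48 at 48 h and 0.03 at 96 h, and complement -0.07 at 96 h and -0.27 in P14. Barcodes under 10% gave coagulation -0.60, -0.18, -0.51 and 0.81 at 24 h, 48 h, 96 h and in P14, and complement -0.09, -0.45 and 0.28 at 48 h, 96 h and in P14. With Alb, Apoa1 and Ttr at 5% or more, coagulation had -0.05, -0.04, -0.38 and 0.10 at 24 h, 48 h, 96 h and in P14, complement -0.26, -0.60 and -0.49 at 24 h, 96 h and in P14, and Vtn in P14 was reversed, at -0.15 against 1.16. The cause of these shifts was not tested. The sign of the coagulation median at 96 h and of the complement median in P14 therefore depended on the setting. At 24 h and 48 h the medians of all genes were -0.61 and -0.55 in barcodes under 10% and -0.19 and -0.18 at the limit of 5%, so the coagulation medians in both settings, and the complement medians in barcodes under 10%, were not below those of all genes. The 48 h intervals under 10% included 0, at -0.43 to 0.08 for coagulation and -0.36 to 0.17 for complement. They are counting intervals of the middle members and do not cover the spread between members. The 2-fold calls of Klkb1 at 24 h and 48 h and of C6, C8a, C8b and C9 in P14 were kept in 13 of 13 alternatives, C6 at 48 h and Proc, Vtn and C4bp in P14 in 11, C8b at 24 h in 10, Proc at 24 h in 9 and the others in 12. The alternatives of at least 50 CPM and of no minimum level could not change member ratios, since each member's mean exceeded 50 CPM. The limit of 5% left 6, 2 and 545 cells over the 3 times and 47 in the control. Counting intervals do not cover differences between animals, and the single library per group limits all comparisons.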
